A study of Rattus norvegicus with 15 samples.

Results

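The 7 genes described here are the rat mitochondrially encoded subunits of respiratory complex I. They were chosen by a list of Ensembl row identifiers, with earlier results of these data known. The identifiers were ENSRNOG00000030644 (Mt-nd1), ENSRNOG00000031033 (Mt-nd2), ENSRNOG00000033615 (Mt-nd3), ENSRNOG00000031053 (Mt-nd4l), ENSRNOG00000029707 (Mt-nd4), ENSRNOG00000029971 (Mt-nd5) and ENSRNOG00000029042 (Mt-nd6). All 7 were rows of the deposited table, which held 22050 rows in all. The symbols came with the list and could not be checked against the gene table used here, which shares no identifier with the deposited rows.

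Complex I is the NADH:ubiquinone oxidoreductase of the inner mitochondrial membrane, the entry point of electrons from NADH into the respiratory chain and a proton pump. Most of its subunits are nuclear genes translated by cytosolic ribosomes, but these core membrane subunits are transcribed from mitochondrial DNA and translated inside the organelle by mitochondrial ribosomes. Cycloheximide blocks elongation by cytosolic ribosomes and does not act on mitochondrial ribosomes. Footprints assigned to these genes therefore address how much signal in a cytosolic granule preparation came from outside cytosolic translation.

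The study profiled whole brain from rats of the Sprague Dawley strain, taken on postnatal day 5 and homogenised in pools of 5. Ribosome footprints, the RNA fragments that a ribosome protects from RNase I, were made from the pellet of a sucrose gradient, where compacted polysomes and RNA granules collect, after a clearing spin and a detergent step. There were 5 vehicle footprint libraries, 3 cycloheximide libraries (100 ug/ml during homogenisation) and 2 salt libraries (pellet held at 400 mM NaCl, then brought to 150 mM before digestion). The 5 RNA-seq libraries, labelled as control, came from the homogenate before any spin, so a footprint to RNA ratio holds the effects of fractionation and of ribosome occupancy, which cannot be told apart.

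Libraries fell into a deeper set (vehicle, cycloheximide and RNA-seq 1 to 3), with 19223750 to 53645452 counts each, and a shallower set (vehicle and RNA-seq 4 and 5, salt 1 and 2), with 941637 to 2808779. The sets are also marked by 6 rows that are empty in the 9 deeper libraries, and ratios were fitted within each set. The labels name no separate animals beyond the pooled brains, so p-values measure the spread between these libraries. Levels are given as CPM, counts scaled to a library total of 1000000, and since gene lengths were not used here no level is compared between genes. Brain cell markers could not be checked, because the rows carry no symbols.

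The summed level of the genes was far lower in footprint libraries than in homogenate RNA. Mt-nd5 was above 3 counts in every footprint library, while Mt-nd3 was at 0 in 8, Mt-nd4l in 9 and Mt-nd4 in all 10 of them. The 7 genes together held 160, 211 and 318 CPM in RNA-seq 1 to 3, and 1025 and 1448 CPM in RNA-seq 4 and 5. The vehicle footprint libraries 1 to 5 held 13.9, 1.37, 2.78, 5.28 and 36.7 CPM. Each footprint library lay below every RNA-seq library. Summed over libraries 1 to 3, the vehicle footprint level was 2.3% of the RNA level (95% exact interval 2.12 to 2.48). Without vehicle library 1, which held 480 of the 680 counts, it was 0.933% (0.808 to 1.07). It was 3.02% (2.78 to 3.27) without vehicle library 2 and 3.14% (2.87 to 3.42) without vehicle library 3. The same share was 1.96% (1.61 to 2.36) in libraries 4 and 5, 0.431% (0.207 to 0.793) without vehicle library 5 and 2.99% (2.44 to 3.64) without vehicle library 4. All such intervals cover counting error only and leave out the spread between libraries. No molecular identifiers show which reads are copies of 1 molecule, so they may understate even the counting error.

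Mt-nd1 forms the junction of the membrane arm with the quinone-binding channel. Its RNA levels were 29.4, 54 and 68.8 CPM in RNA-seq 1 to 3 and 351 and 555 CPM in RNA-seq 4 and 5. Its footprints stood at 1.94, 0.0808 and 0.168 CPM in vehicle libraries 1 to 3, and at 0.528 and 1.07 in 4 and 5. Footprint and RNA levels did not overlap in either set, as in 54.9% of all genes tested in libraries 1 to 3 and 39.8% in libraries 4 and 5, and vehicle library 1 stood over 10 times above vehicle libraries 2 and 3. The footprints behind these levels were few, at 67, 3 and 9 counts in the deeper libraries and 1 and 3 in the shallower ones. The log2 footprint to RNA ratio was -5.67 (SE 1.15) in libraries 1 to 3, with an adjusted p of 0.00237 (edgeR quasi-likelihood test, Benjamini-Hochberg over all genes tested, as throughout). The ratio was -8.71 (SE 0.54, edgeR adjusted p = 2.04e-07) in libraries 4 and 5.

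Mt-nd2 and Mt-nd5 are antiporter-like subunits that carry proton translocation in the membrane arm. Mt-nd2 RNA stood at 45.2, 46.9 and 56.9 CPM in RNA-seq 1 to 3 and at 262 and 382 CPM in RNA-seq 4 and 5. Mt-nd2 footprints stood at 1.71, 0.431 and 0.186 CPM in vehicle libraries 1 to 3, and at 1.06 and 3.56 in 4 and 5. Again no footprint library reached an RNA-seq library. The log2 ratio of Mt-nd2 was -5.53 (SE 0.95, edgeR adjusted p = 0.000928) in libraries 1 to 3 and -6.72 (SE 0.51, edgeR adjusted p = 1.46e-06) in libraries 4 and 5.

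Mt-nd5 gave the most footprint counts of the 7 genes in every footprint library, with 872 over all 10, in counts that are not scaled by gene length. Its RNA levels were 60.0, 85.4 and 139 CPM in RNA-seq 1 to 3 and 339 and 396 CPM in RNA-seq 4 and 5. Footprints of Mt-nd5 stood at 8.41, 0.646 and 2.16 CPM in vehicle libraries 1 to 3, and at 3.17 and 27.4 in 4 and 5. Vehicle libraries 1 and 5 stood highest in their sets, yet neither reached any RNA-seq library. The log2 ratio of Mt-nd5 was -4.17 (SE 0.93, edgeR adjusted p = 0.00395) in libraries 1 to 3 and -4.24 (SE 0.60, edgeR adjusted p = 0.000951) in libraries 4 and 5.

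Mt-nd6 is the only one of these subunits encoded on the light strand of mitochondrial DNA, next to Mt-nd5 on the opposite strand. Whether the counting used strand is not given in the sources used here, so reads antisense to a neighbour cannot be told apart from its own. Mt-nd6 RNA stood at 18.6, 16.4 and 28.5 CPM in RNA-seq 1 to 3 and at 58.4 and 80.3 CPM in RNA-seq 4 and 5. Mt-nd6 footprints stood at 1.71, 0.215 and 0.261 CPM in vehicle libraries 1 to 3, and at 0.528 and 4.63 in 4 and 5. The same vehicle libraries, 1 and 5, were highest in their sets. The log2 ratio of Mt-nd6 was -4.39 (SE 0.79, edgeR adjusted p = 0.00116) in libraries 1 to 3 and -4.36 (SE 0.86, edgeR adjusted p = 0.0101) in libraries 4 and 5.

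Mt-nd3 and Mt-nd4l encode small membrane subunits near the quinone site. Mt-nd3 RNA stood at 5.51, 6.15 and 4.31 CPM in RNA-seq 1 to 3 and at 13.8 and 23.8 CPM in RNA-seq 4 and 5, and vehicle library 1 held 4 footprint counts (0.116 CPM) while the other 4 vehicle libraries held 0. The log2 ratio of Mt-nd3 in libraries 1 to 3 was -6.63 (SE 0.93, edgeR adjusted p = 0.000301). In libraries 4 and 5, Mt-nd3 had 0 footprint counts against 89 RNA counts. A floor of 3 counts over the group would put its footprints 29.1-fold lower. The exact interval reached up to 4.32% of RNA, and the test did not call it (edgeR adjusted p = 0.0634).

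Mt-nd4l had 16, 44 and 38 counts in RNA-seq 1 to 3 and only 2 and 23 in RNA-seq 4 and 5. It had 0 counts in all 5 vehicle libraries. Over libraries 1 to 3 a floor of 3 counts would put its footprints 57.5-fold below RNA. The exact interval reached up to 2.18% of RNA, and the gene was called lower (edgeR adjusted p = 0.00140). Over libraries 4 and 5 it did not pass the filter on low counts. There the floor would put it 8.17-fold lower, and the exact interval reached up to 16.2% of RNA.

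Mt-nd4 is the third antiporter-like subunit, and in mammals it shares a single mRNA with Mt-nd4l in overlapping reading frames. In the table it was listed at 0 in all 10 footprint libraries and in RNA-seq 2, 4 and 5, at 1 count in RNA-seq 1 and at 500 counts (19.2 CPM) in RNA-seq 3. No other row of the table had at least 100 counts in RNA-seq 3 and at most 1 in each other library. The other 6 genes were counted in every RNA-seq library. Mt-nd4 passed the filter on low counts in no fit, and a bound on its footprint level would rest on RNA-seq 3 alone. How reads that match several places were counted is not given in the sources used here. That limit holds for the other 6 genes too, whose RNA levels enter every ratio given. The value of this row is uncertain, and whether nuclear copies of mitochondrial sequence or the overlap with Mt-nd4l bear on it was not tested.

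**Figure D1:**
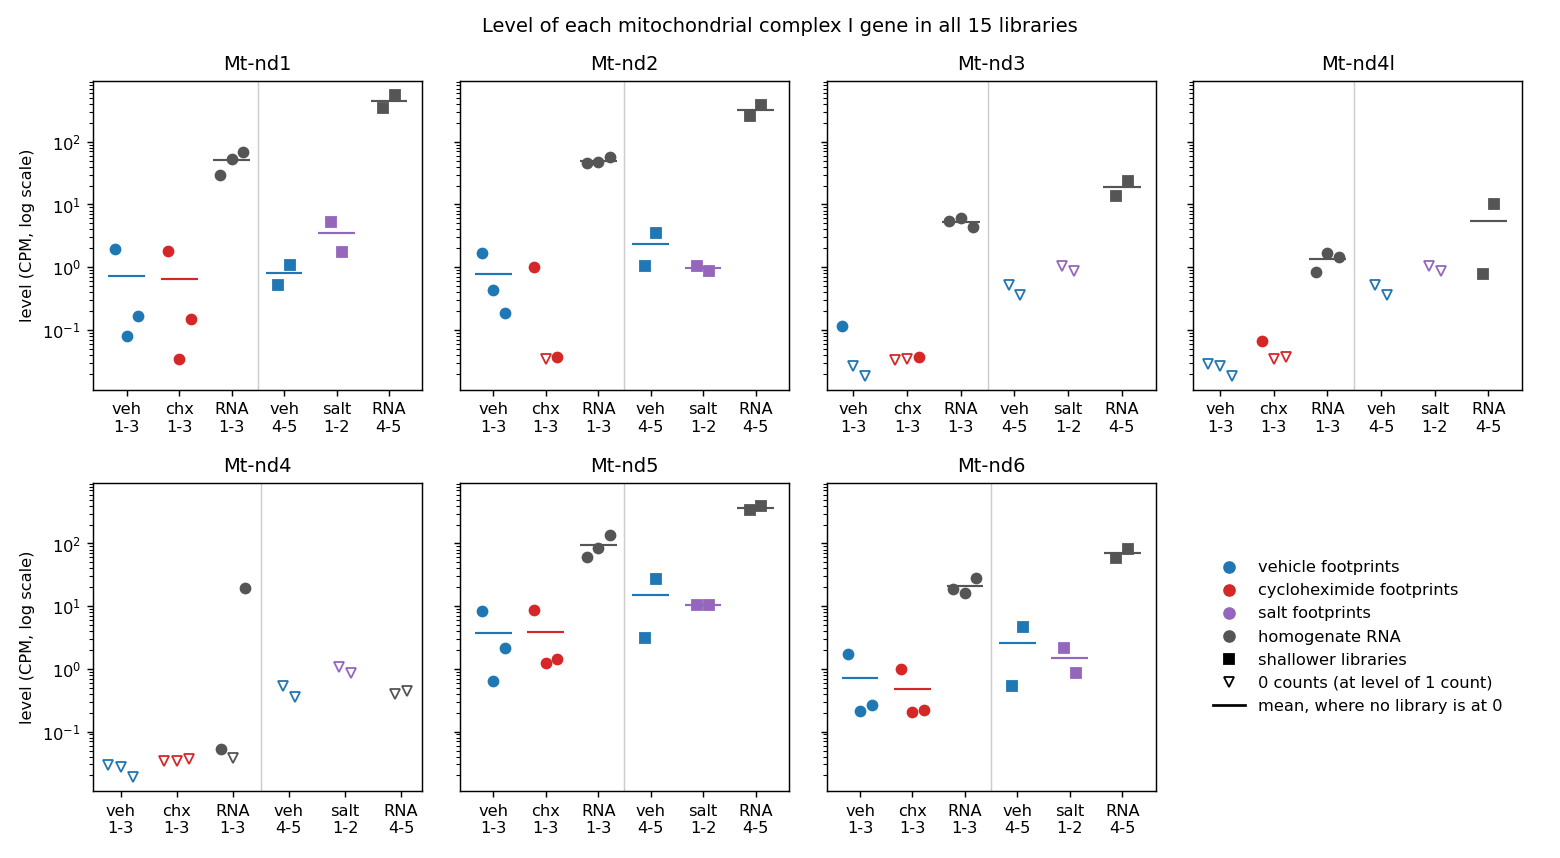
Level of each of the 7 genes in each library, in CPM on a log axis, with a panel per gene and columns for vehicle (veh), cycloheximide (chx), salt and homogenate RNA libraries of the deeper (circles) and shallower (squares) sets; open triangles mark 0 counts at the level of 1 count and lines mark means. RNA-seq points lie above footprint points for Mt-nd1, Mt-nd2, Mt-nd3, Mt-nd5 and Mt-nd6. Mt-nd4 has RNA-seq points at 19.2 CPM (RNA-seq 3) and, from 1 count, at 0.0520 CPM (RNA-seq 1).

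The plot of levels by library shows the gap between RNA and footprints for Mt-nd1, Mt-nd2, Mt-nd3, Mt-nd5 and Mt-nd6, and the spread of footprint points within a group. In libraries 1 to 3, 6 of the 7 genes were tested and the 6 were called lower in vehicle footprints than in RNA, where 27.6% of the 15437 genes tested were called lower at an adjusted p under 0.05. In libraries 4 and 5, 5 were tested and 4 were called lower (Mt-nd1, Mt-nd2, Mt-nd5 and Mt-nd6), where 2.17% of 11729 genes were called lower. These counts are a description: Mt-nd1, Mt-nd3, Mt-nd4l and Mt-nd6 passed the filter in the deeper set through RNA libraries alone, as did the tested genes other than Mt-nd5 in the shallower set, so they could pass only by being higher in RNA. Mt-nd5 passed through its footprints in both sets and Mt-nd2 in the deeper set.

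The fitted ratios of the tested genes had a median of -5.60 (log2) in libraries 1 to 3, beside -0.21 over all 15437 genes. The median was also -5.60 with Mt-nd4l set at its floor of 3 counts. Their median in libraries 4 and 5 was -6.72, or -4.86 with Mt-nd3 at its floor, beside -0.08 over all 11729 genes. The floors use library totals without the scaling of the fits. Of the 15437 genes, 763 had a ratio below that of Mt-nd5, 735 below Mt-nd6, 629 below Mt-nd2, 612 below Mt-nd1 and 525 below Mt-nd3. The lowest ratios of the table were therefore not held by these genes. In libraries 4 and 5 only 36 of 11729 genes had a ratio below that of Mt-nd1, while 248 lay below Mt-nd5.

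**Figure D2:**
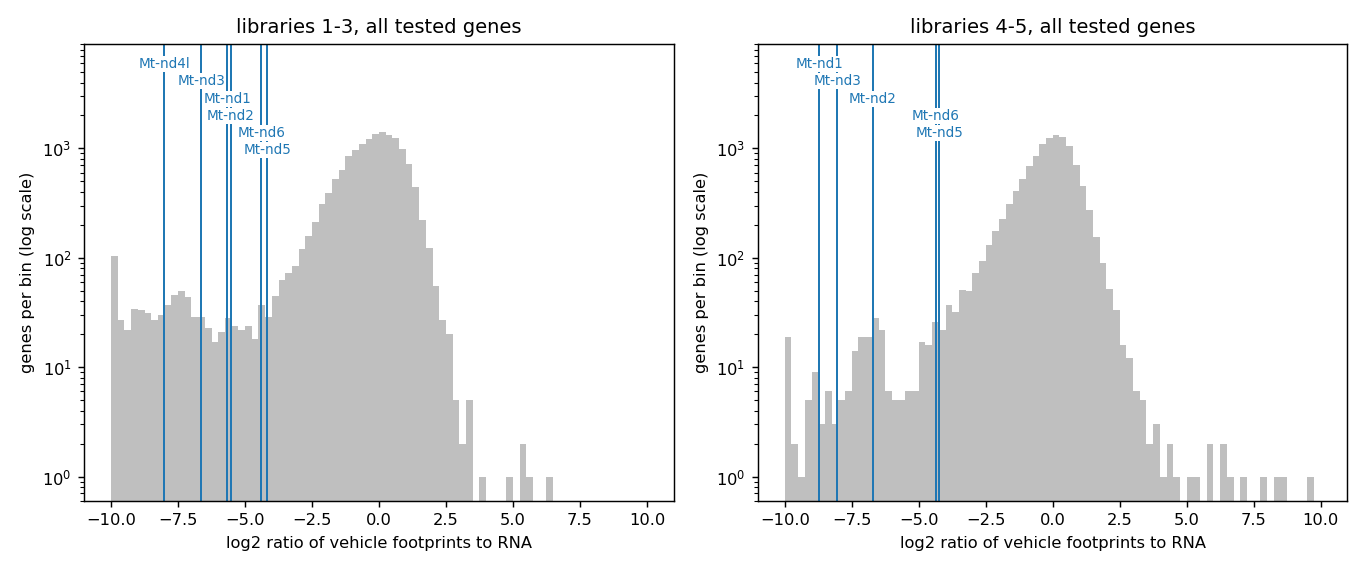
Number of tested genes per bin of the log2 ratio of vehicle footprints to RNA (log axis of genes), in libraries 1 to 3 (left) and 4 and 5 (right), with vertical lines at the fitted ratios of the mitochondrial complex I genes; the outermost bars also hold values beyond them, and the lines of Mt-nd4l (left) and Mt-nd3 (right) are fits to 0 footprint counts. All lines lie in the lower tail, with Mt-nd5 at -4.17 and -4.24.

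The plot of all ratios places the genes in the lower tail of both sets, apart from the bulk of the distribution near 0. With all 5 vehicle and 5 RNA-seq libraries in a fit that takes out the set difference, the log2 ratios were -6.34 (SE 0.79) for Mt-nd1, -5.84 (SE 0.50) for Mt-nd2, -6.80 (SE 0.79) for Mt-nd3, -4.16 (SE 0.64) for Mt-nd5 and -4.33 (SE 0.56) for Mt-nd6. With Mt-nd4l, 6 genes were called lower, where 18.0% of 14347 genes were (edgeR, adjusted p under 0.05). That count is a description too, since which libraries carried each gene past the filter of the joint fit was not worked out. Mt-nd5 and Mt-nd6 lay between -4.16 and -4.39 in both sets and in the joint fit, whereas the values of Mt-nd1 were further apart. Without vehicle library 1 the joint ratios fell to -8.19 for Mt-nd1, -6.69 for Mt-nd2, -4.86 for Mt-nd5 and -5.16 for Mt-nd6, and Mt-nd3 had no footprint count left. The difference of the ratio between the sets, tested as an interaction, was -3.15 (SE 1.86) for Mt-nd1 with an edgeR adjusted p of 0.376, and none of the 6 genes tested was called for it, where 2.47% of 16191 genes were. For Mt-nd5 that difference was -0.09 (SE 1.42) and for Mt-nd6 it was 0.01 (SE 0.67), so the standard errors leave room for sizeable differences.

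Single libraries moved these ratios by more than 1.5 times. Without vehicle library 1, the log2 ratios in libraries 1 to 3 were -8.02 for Mt-nd1, -6.81 for Mt-nd2, -5.50 for Mt-nd5 and -5.89 for Mt-nd6. Without vehicle library 5, those in libraries 4 and 5 were -9.37 for Mt-nd1, -7.96 for Mt-nd2, -6.63 for Mt-nd5 and -6.67 for Mt-nd6. These values are lower still, and each had an edgeR adjusted p under 0.05. The ratio of Mt-nd3 in libraries 1 to 3 was -5.92 without vehicle library 3, and that of Mt-nd5 in libraries 4 and 5 was -3.47 without vehicle library 4. In libraries 4 and 5 the call of Mt-nd6 was lost without vehicle library 4 (ratio -3.61, edgeR adjusted p = 0.0510) and without RNA-seq 5 (0.0838). Mt-nd3, not called in libraries 4 and 5, was called there with the library number as a block (edgeR adjusted p = 0.00703), with no filter on low counts (0.0160) and with DESeq2 (adjusted p = 0.00874).

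**Figure D3:**
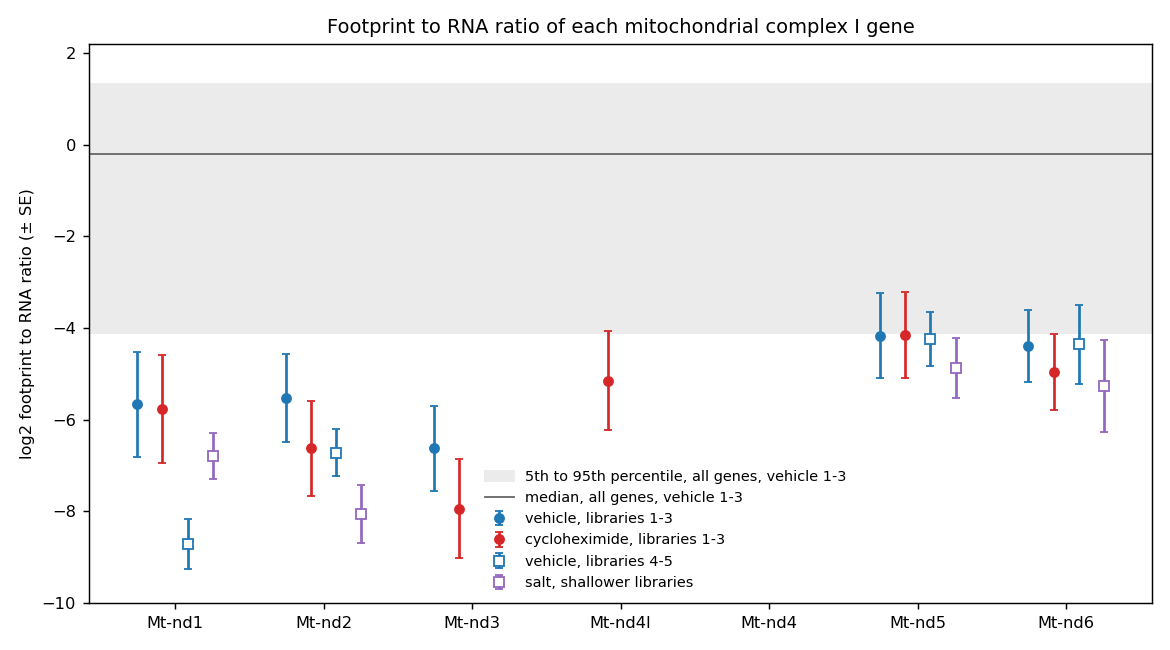
Fitted log2 ratio of footprints to RNA with its standard error for each gene and footprint group, beside the median (line) and the range from the 5th to the 95th percentile (band) of all genes in vehicle libraries 1 to 3; genes with 0 footprint counts in a group and genes not tested are left out. Mt-nd5 and Mt-nd6 lie between -4.15 and -5.28, above Mt-nd1 and Mt-nd2.

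The summed footprint level differed widely between libraries of the vehicle and cycloheximide groups. Among vehicle libraries 1 to 3 the highest summed level, in library 1, was 10.1 times the lowest, in library 2. Among cycloheximide libraries the corresponding ratio was 8.48, again with library 1 highest and library 2 lowest. Among RNA-seq 1 to 3 it was 1.99. The libraries numbered 1 thus stood high for both footprint groups, with 13.9 CPM for vehicle and 12.6 CPM for cycloheximide, while their RNA-seq partner by number was the lowest of RNA-seq 1 to 3. Vehicle library 5 stood 6.95 times above vehicle library 4, against 1.41 between RNA-seq 5 and 4 and 1.38 between salt libraries 1 and 2.

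**Figure D4:**
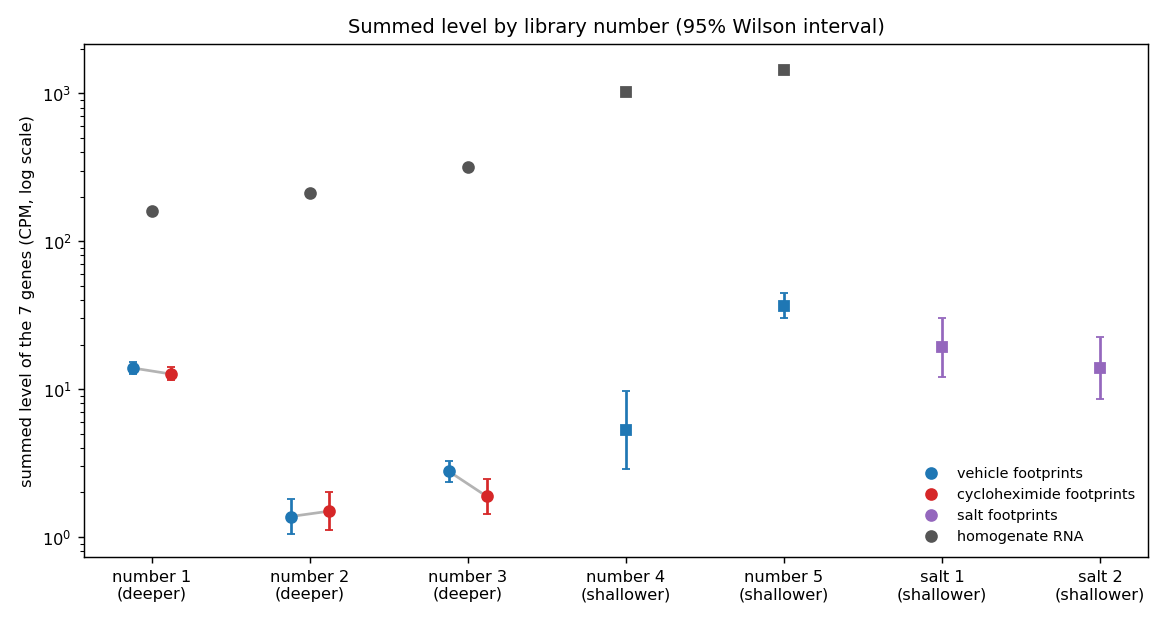
Summed level of the 7 genes in each library, in CPM on a log axis, ordered by the library number in the titles, with 95% Wilson intervals that cover counting error only; grey lines join vehicle and cycloheximide libraries of the same number. Vehicle and cycloheximide libraries 1 stand at 13.9 and 12.6 CPM, far above libraries 2 and 3, and all RNA-seq libraries stand at 160 CPM or more.

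The plot of summed levels shows that the vehicle and cycloheximide libraries numbered 1 lay close to each other and apart from the other deeper footprint libraries. The summed cycloheximide level was 91.1% (95% exact interval 79.4 to 104) of the vehicle level in libraries 1, 109% (70.8 to 166) in libraries 2 and 67.7% (48.2 to 93.6) in libraries 3. Against the RNA-seq library of the same number, the summed vehicle footprint level was 8.69%, 0.652%, 0.874%, 0.515% and 2.53% in libraries 1 to 5. Those numbers are labels, and RNA-seq libraries did not deviate together with footprint libraries of the same number. A cause for the high libraries was not tested.

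With cycloheximide, footprints of the genes were again scarce. Cycloheximide footprint levels in libraries 1 to 3 were 1.79, 0.0339 and 0.147 CPM for Mt-nd1 and 1.01, 0 and 0.0368 CPM for Mt-nd2. They were 8.77, 1.25 and 1.44 CPM for Mt-nd5 and 1.01, 0.203 and 0.221 CPM for Mt-nd6. In each of these genes library 1 was the highest and no library reached the RNA-seq libraries, as for 53.0% of all genes tested. Mt-nd3 had 1 count, in library 3, and Mt-nd4l had 2 counts, in library 1, which put them at 0.218% (0.00552 to 1.22) and 1.69% (0.201 to 6.25) of RNA. The log2 ratio to RNA was -5.77 (SE 1.17) for Mt-nd1, -6.63 (SE 1.04) for Mt-nd2, -4.15 (SE 0.93) for Mt-nd5 and -4.96 (SE 0.83) for Mt-nd6, each with an edgeR adjusted p of 0.00417 or less. With Mt-nd3 and Mt-nd4l, 6 of the 6 genes tested were called lower, where 27.9% of 15437 genes were. That count is a description, since Mt-nd1, Mt-nd3, Mt-nd4l and Mt-nd6 again could pass the filter only by being higher in RNA. This comparison shares its RNA-seq libraries with the vehicle comparison. Without cycloheximide library 1 the log2 ratios fell further, to -8.57 for Mt-nd1, -10.65 for Mt-nd2, -5.60 for Mt-nd5 and -6.08 for Mt-nd6, where the value of Mt-nd2 rests on 1 footprint count. Without cycloheximide library 2 the ratio of Mt-nd2 was -6.04.

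The direct comparison of cycloheximide with vehicle footprints in libraries 1 to 3 called none of these genes, and 0% of the 15437 genes tested, with DESeq2 also at 0. At an unadjusted p under 0.05 there were 204 genes (1.32%), and none of the 6 tested here. The log2 difference of cycloheximide from vehicle was 0.02 (SE 0.86) for Mt-nd5, -0.58 (SE 0.81) for Mt-nd6, -0.10 (SE 1.15) for Mt-nd1 and -1.10 (SE 1.02) for Mt-nd2, each with an edgeR adjusted p of 1. The levels of the treatments overlapped for all 7 genes. This fit did not pair libraries by number, so its standard errors hold the spread that the libraries numbered 1 shared. With the library number as a block, the differences were 0.05 (SE 0.68) for Mt-nd5 and -1.21 (SE 0.90) for Mt-nd2. The sign of the Mt-nd1 difference turned to 2.26 without vehicle library 1, and that of Mt-nd5 to -1.46 without cycloheximide library 1.

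The salt libraries, the shallowest of the table, held few counts of these genes. Salt libraries 1 and 2 held 18 and 16 counts of the 7 genes, a summed level of 19.1 (95% Wilson interval 12.1 to 30.2) and 13.8 CPM (8.5 to 22.4), between vehicle libraries 4 and 5. Mt-nd5 made up 10 and 12 of these counts (10.6 and 10.4 CPM), Mt-nd1 5 and 2, Mt-nd6 2 and 1, and Mt-nd2 1 and 1. Mt-nd3, Mt-nd4l and Mt-nd4 had 0 counts, where 3 counts would be 3.19 and 2.59 CPM in these libraries. The salt footprint level summed over both libraries was 1.32% (0.914 to 1.85) of RNA-seq 4 and 5.

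The log2 ratio of salt footprints to RNA was -6.79 (SE 0.50) for Mt-nd1, -8.06 (SE 0.63) for Mt-nd2, -4.87 (SE 0.66) for Mt-nd5 and -5.28 (SE 1.00) for Mt-nd6. These 4 were called lower of 5 tested, where 2.04% of 11729 genes were, and Mt-nd3 was not (edgeR adjusted p = 0.110). A floor of 3 counts would put Mt-nd3 13.0-fold lower, and its exact interval reached up to 9.67% of RNA. The call of Mt-nd5 was lost without salt library 1 (edgeR adjusted p = 0.0952) or salt library 2 (0.195), and that of Mt-nd6 without salt library 2 (0.110). The ratio of Mt-nd1 was -7.75 without salt library 1 and -6.14 without salt library 2, and that of Mt-nd6 was -6.00 without salt library 1.

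Compared directly with vehicle libraries 4 and 5, salt footprints showed no called gene among the 7 and 0% of 11729 genes, with DESeq2 also at 0. At an unadjusted p under 0.05 there were 442 genes (3.77%), among them Mt-nd1, with a log2 difference of 1.91 (SE 0.84, edgeR adjusted p = 1). Mt-nd1 stood at 5.31 and 1.73 CPM with salt and at 0.528 and 1.07 CPM with vehicle, with no overlap, as for 13.6% of all genes, which stood higher in both salt libraries than in both vehicle libraries. That difference rests on 7 counts against 4. Mt-nd5 (-0.63, SE 0.69), Mt-nd6 (-0.92, SE 1.12) and Mt-nd2 (-1.34, SE 0.96) had negative log2 differences with standard errors of similar size, and their levels overlapped. Without vehicle library 5 the difference turned to 1.75 for Mt-nd5 and to 1.39 for Mt-nd6. Salt was profiled only in the shallower set and cycloheximide only in the deeper set, so the treatments were not compared with each other.

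The genes did not share the footprint counts in the proportions of their RNA. Mt-nd5 held 60.6%, 47.1%, 77.9%, 60% and 74.8% of the counts of the 7 genes in vehicle libraries 1 to 5. It held 69.3%, 84.1% and 76.5% in the cycloheximide libraries and 55.6% and 75% in the salt libraries. In RNA-seq 1 to 5 its share was 37.6%, 40.6%, 43.7%, 33.0% and 27.4%. Every footprint library thus lay above every RNA-seq library for this share, although vehicle library 4 rests on 10 counts and the salt libraries on 18 and 16. The gap was narrow between vehicle library 2 (47.1%, of 51 counts) and RNA-seq 3 (43.7%). The total of RNA-seq 3 holds the 500 uncertain counts of Mt-nd4, and its Mt-nd5 share would be higher without them. Mt-nd1 held 18.4% to 38.3% of the counts in RNA and 2.27% to 27.8% in footprints, with overlap in salt library 1.

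**Figure D5:**
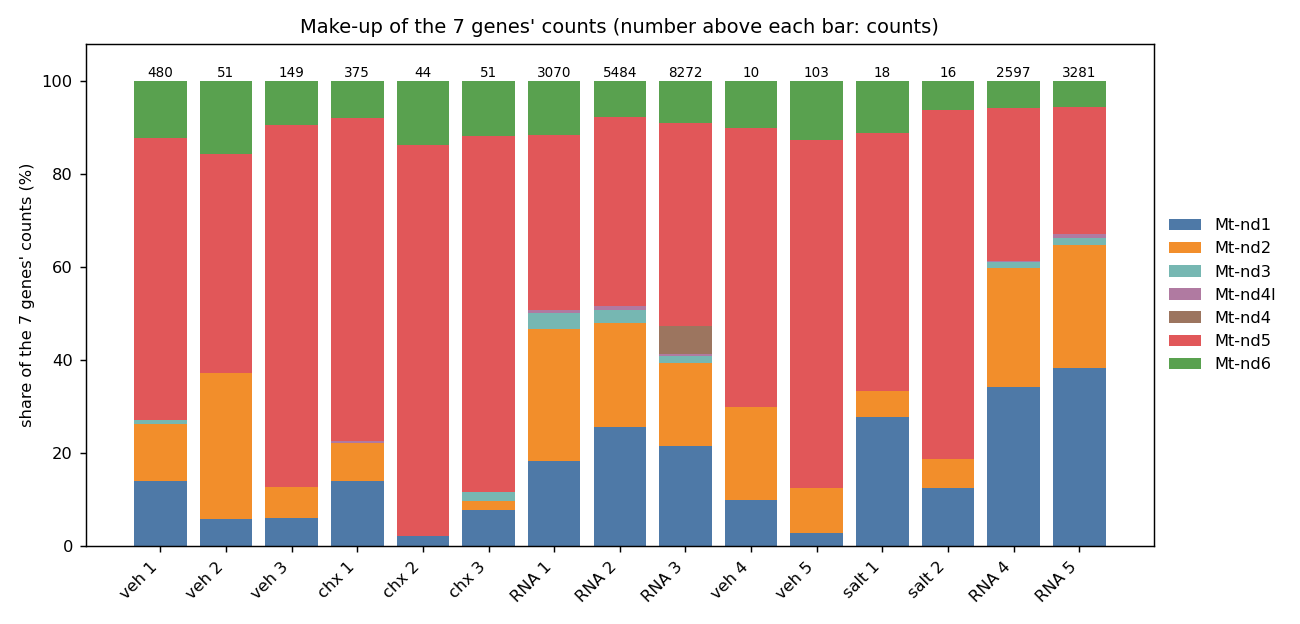
Share of the counts of the 7 genes held by each gene, in percent, for each library, with the number of counts above each bar; veh, chx, salt and RNA stand for vehicle, cycloheximide, salt and homogenate RNA libraries. Mt-nd5 takes 47.1% to 84.1% in the 10 footprint libraries and 27.4% to 43.7% in the 5 RNA-seq libraries.

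The plot of the make-up of the counts shows Mt-nd5 as the widest segment in every footprint library. Counts of Mt-nd5 per count of Mt-nd1 were 4.34, 8, 12.9, 6 and 25.7 in vehicle libraries 1 to 5. They were 4.91, 37 and 9.75 with cycloheximide and 2 and 6 with salt. In RNA-seq 1 to 5 they were 2.04, 1.58, 2.02, 0.964 and 0.714, so salt library 1 fell just below the highest RNA-seq value and the other 9 footprint libraries lay above it. Counts of Mt-nd6 per count of Mt-nd5 ranged from 0.0833 to 0.333 in footprints and from 0.172 to 0.310 in RNA, and overlapped. This make-up was noticed in the data, and the difference in Mt-nd5 share was not tested against an expected value.

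The RNA levels of the genes also differed between the RNA-seq sets, a comparison added after the values were seen. Mt-nd1, Mt-nd2, Mt-nd3, Mt-nd5 and Mt-nd6 each stood higher in RNA-seq 4 and 5 than in RNA-seq 1 to 3 with no overlap, where 14.3% of 16191 genes did. The log2 difference was 2.88 (SE 0.50, edgeR adjusted p = 0.00545) for Mt-nd2, the only call among the 6 genes tested, where 2.91% of all genes were called higher. For Mt-nd1 it was 3.34 (SE 0.80, edgeR adjusted p = 0.0630), and for Mt-nd5 2.14 (SE 0.92, 0.274). For Mt-nd6 it was 1.89 (SE 0.64, edgeR adjusted p = 0.136) and for Mt-nd3 2.01 (SE 0.70, 0.148). The Mt-nd2 call was lost without RNA-seq 2 (edgeR adjusted p = 0.0635) or RNA-seq 5 (0.0793). Mt-nd1 and Mt-nd3 were called with DESeq2 (adjusted p = 0.0419 and 0.00667), and Mt-nd1 also with RNA-seq counts halved (edgeR adjusted p = 0.0470). In whole-brain homogenates, fewer cells of a type and less RNA per cell cannot be told apart, and here depth and library set differ with the same split.

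Even counts were common among the RNA values of these genes. Of their 32 nonzero values in RNA-seq libraries 26 (81.2%) were even, against 10 of 21 in vehicle, 7 of 13 in cycloheximide and 4 of 8 in salt libraries. The share of even counts over all genes was not computed, so it is not known whether this is particular to these genes. With RNA-seq counts halved, the ratios of Mt-nd1, Mt-nd2, Mt-nd5 and Mt-nd6 in libraries 1 to 3 were -5.66, -5.52, -4.16 and -4.38. That setting lowers all genes of a library and its total by the same factor, so the ratios could hardly move. It therefore cannot show whether the even counts bear on the ratios, which was not tested.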

How the data were processed

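Raw read counts per gene, whole numbers in 1 table of 15 libraries, were deposited by the authors and used unchanged. The submitters' processing notes name cutadapt 2.8, Bowtie2 2.3.5, STAR 2.7.3a and the build Rnor_6.0. The counting program, the use of strand and the treatment of reads that match several places are not given in the sources used here. Groups and numbers came from the titles. The 7 genes, the lists and the tests were chosen with earlier results of these data known. Of 22050 rows, 6 with empty cells were left out. Ratios were tested with edgeR 4.0.16 (R 4.3.3; quasi-likelihood F-test, TMM, filterByExpr, robust), with Benjamini-Hochberg adjustment over all genes tested and calls at an adjusted p under 0.05. The standard error is the absolute log2 ratio divided by the square root of F. DESeq2 1.42.0, other scalings and left-out libraries were alternatives. The edgeR test was first checked on simulated data, with changes smaller than the fitted ratios of these genes to RNA. Only genes above a set mean level were changed there, so the check did not cover genes as low as Mt-nd3 and Mt-nd4l. CPM, shares and intervals (95% Wilson or exact) were computed in Python 3.11.15. Every gene of the list was named. The lists of nuclear complex I genes, of other mitochondrial genes and of cell markers were not used here, because 0 of the row identifiers matched the RefSeq gene table. Over 12018 genes, cycloheximide and vehicle libraries of the same number deviated together (correlations 0.838, 0.456 and 0.445). Their numbers were used to pair them only in the alternative fit with a block, and the main fits had no block. Only libraries 1 stood apart: cycloheximide 2 with vehicle 3 (0.538) and cycloheximide 3 with vehicle 2 (0.615) correlated more. Vehicle and RNA-seq libraries of the same number did not deviate together (-0.210, 0.0861 and -0.135 in libraries 1 to 3, -0.0499 in libraries 4 and 5).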

Additional observations from a re-analysis of the deposited data

Results flagged for a closer look

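In 3 of 14 groups of values, a single library stood apart from the rest of its group. Chance sets a library apart in about 1 in 20 groups of like values, a rate that does not carry over to these groups, which join libraries of the deeper and shallower sets. Mt-nd3 in vehicle library 1 stood at 0.116 CPM (4 counts) while the other 4 vehicle libraries held 0 counts, and in vehicle libraries 4 and 5, where 3 counts would be 1.58 and 1.07 CPM, such a level could not have been seen. Mt-nd4l in RNA-seq 5 stood at 10.2 CPM (23 counts), against 0.789 to 1.69 CPM in RNA-seq 1 to 4. Mt-nd4 in RNA-seq 3 stood at 19.2 CPM (500 counts), against at most 1 count in the other 4 RNA-seq libraries.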

How the results depend on the processing

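Among the ratios to RNA within a set and over all 5 and 5 libraries, every value computed for the tested genes stayed negative under every alternative run. With the replicate block the ratios in libraries 1 to 3 were -6.73 for Mt-nd1 and -4.96 for Mt-nd5 with vehicle and -6.84 for Mt-nd1, -7.29 for Mt-nd2 and -4.91 for Mt-nd5 with cycloheximide, and the joint ratio of Mt-nd1 was -7.14. Without the set term the joint ratios were -7.81 for Mt-nd1, -6.88 for Mt-nd2 and -7.67 for Mt-nd3. Counts of called genes moved by more than 1.5 times in several comparisons. For vehicle footprints against RNA in libraries 4 and 5 (535 genes) DESeq2 gave 803, no filter on low counts 905, the replicate block 838, and leaving out a library 187 to 465. For salt against RNA (485 genes) DESeq2 gave 777, no filter 838 and leaving out a library 103 to 441, with 2 to 4 of the mitochondrial genes called. For salt against vehicle (0 genes) no filter gave 2, and the replicate block with vehicle libraries 1 and 2, which are in the other set, 406. For the difference of the ratio between sets (400 genes) DESeq2 gave 1600, total counts 184 and leaving out a library 37 to 3031. For RNA-seq 4 and 5 against 1 to 3 (549 genes, 1 of the mitochondrial genes) DESeq2 gave 1430 with 3, halved RNA-seq counts 2 of the mitochondrial genes, and leaving out a library 146 to 647 with 0 to 1.

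Several differences changed sign. Against vehicle, Mt-nd5 turned to -1.11 with cycloheximide and to 0.37 with salt when all 5 vehicle libraries were used, and the salt differences with the replicate block were 0.14 for Mt-nd2, 2.17 for Mt-nd5 and 1.05 for Mt-nd6. The difference between sets turned to 0.045 (RLE scaling) and 0.16 (total counts) for Mt-nd5 and to 1.93 (DESeq2) for Mt-nd4l. Leaving out a library gave, for cycloheximide against vehicle, -2.93 to 2.26 for Mt-nd1, -5.15 to 0.19 for Mt-nd2, -3.42 to 2.07 for Mt-nd3, -1.46 to 1.35 for Mt-nd5 and -1.72 to 0.93 for Mt-nd6. For salt against vehicle it gave -1.43 to 1.75 for Mt-nd5 and -1.69 to 1.39 for Mt-nd6. For the difference between sets it gave -3.05 to 0.55 for Mt-nd4l, -2.54 to 1.18 for Mt-nd5 and -2.49 to 1.45 for Mt-nd6, and for RNA-seq 4 and 5 against 1 to 3, -0.55 to 3.05 for Mt-nd4l. The cause of these changes was not tested. The replicate block changed no call of the mitochondrial genes other than that of Mt-nd3 in libraries 4 and 5.

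Scaling by total counts moved the median log2 ratio of all genes from -0.21 to -0.75 in libraries 1 to 3 and from -0.08 to -0.33 in libraries 4 and 5. It changed the split of higher and lower calls from 3250 and 4257 to 1324 and 7197 for vehicle against RNA in libraries 1 to 3, and from 280 and 255 to 117 and 347 in libraries 4 and 5. For cycloheximide against RNA the split went from 3190 and 4302 to 1422 and 6958, for salt against RNA from 246 and 239 to 97 and 339, for all 5 and 5 from 2307 and 2581 to 804 and 4917, and for RNA-seq 4 and 5 against 1 to 3 from 471 and 78 to 308 and 209. For the difference between sets it went from 79 and 321 to 92 and 92, and with DESeq2 to 720 and 880. Taking the 7 genes out of the totals was added after seeing the data and moved no call of theirs. Taking out all mitochondrially encoded rows was not run, since those rows could not be told from their identifiers. Depth limits the footprint values of Mt-nd3 and Mt-nd4l, at 5 and 2 counts over all 10 libraries, and those of all genes but Mt-nd5 in the salt libraries.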

Other observations

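The row whose levels followed those of the mitochondrial complex I genes most closely over all 15 libraries was ENSRNOG00000030700, with a Pearson correlation of 0.987 with their mean log2(CPM + 1), among 12014 rows with a mean of at least 50 counts. The next was ENSRNOG00000031979, at 0.983. Both correlations are descriptions, and the libraries share the split between RNA and footprints and the split in depth. These rows carry no symbol in the table and could not be named. Their log2 ratios of vehicle footprints to RNA in libraries 1 to 3 were -6.75 (SE 0.66) and -6.47 (SE 1.00), and in libraries 4 and 5 -8.06 (SE 0.69) and -8.25 (SE 0.45). ENSRNOG00000030371 (correlation 0.979) had a ratio of -7.24 (SE 0.68) in libraries 1 to 3. ENSRNOG00000038347 and ENSRNOG00000052025 (0.976 each) had only -1.14 (SE 0.28) and -1.55 (SE 0.17) there, so likeness did not always go with so low a ratio. Over the 10 footprint libraries alone, the 5 closest of 11508 rows had correlations of 0.951 to 0.983. The ratios of those 5 rows in libraries 1 to 3 ran from -1.10 to -0.33.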
